A study of Homo sapiens with 4 samples.

Results

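Collagens are secreted structural proteins in which 3 chains, each made of glycine-led triplets, wind into a triple helix. The collagen transcripts described here came from 9 genes of the human cell line GES-1, labelled as gastric epithelial, in which N6-methyladenosine (m6A), a methyl mark on adenosines inside RNA, was mapped by immunoprecipitation with an m6A antibody and sequencing. A peak is a stretch where immunoprecipitated fragments piled up above the local background. Peaks belonged to a collagen gene when their summit lay inside that gene's hg19 span, which gave 73 of 52188 peaks from cells treated with chenodeoxycholic acid (CDCA) and 79 of 63093 peaks from control cells. The genes were picked with earlier results from these lists known, so their peak numbers and strengths describe them and were put to no test.

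CDCA, a primary bile acid made by the liver, was the treatment, and the question was how m6A sites compare between GES-1 cells given 100 µM CDCA for 48 h and GES-1 cells that received no treatment. The series had 4 samples, an m6A immunoprecipitation and an input library for each condition. The lists of the 2 immunoprecipitation libraries were used, whereas the inputs were not used here as samples. With 1 library per condition there was no replicate, no test between conditions and no p-value, and CDCA cannot be told apart from variation between libraries. The 95% intervals below were computed exactly (Clopper-Pearson) and cover counting error alone, and peaks of 1 transcript are not independent of each other. The lists hold no gene names, strands or expression values, so the cell type could not be checked against its markers, a peak could belong to another gene on either strand of the same span, and a difference in methylation cannot be told apart from one in RNA amount.

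m6A is placed on RNA largely within DRACH-type sequence contexts by a METTL3 and METTL14 complex, is removed by ALKBH5 and FTO, and is known to gather near stop codons and in 3′ untranslated regions as well as in long internal exons. Reader proteins bound to it can change how long a transcript lasts and how often it is translated. Collagen chains have roles that differ by type: types I and V form fibrils, type XII coats them, type VI builds beaded microfibrils, types IV and XVIII belong to basement membranes, and type VII anchors epithelium to the tissue below.

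Collagen peaks were spread very unevenly over the 9 genes, whose spans ran from 18 kb (COL1A1) to 206 kb (COL4A2). COL5A1 held 31 peaks in CDCA cells and 35 in control cells. COL4A2 had 15 peaks in each list, COL6A2 had 7 in each and COL18A1 had 5 in each. These 3 genes thus had equal numbers in the full CDCA and control lists, which did not hold at higher minimum strengths (see the last section). COL4A1 had 7 peaks in CDCA cells and 6 in control cells, and COL6A1 had 5 in CDCA cells and 3 in control cells. COL12A1 had 2 peaks in CDCA cells and 8 in control cells, COL7A1 had 1 in CDCA cells and 0 in control cells, and COL1A1 had 0 in both. Per 100 kb of span, COL6A2 had 20 peaks in each list, COL6A1 20.8 CDCA and 12.5 control peaks, and COL5A1 15.2 CDCA and 17.2 control peaks. None of the other genes had more than 7.28 in either list. COL5A1 thus led in number but not in peaks per length of span. In all, the CDCA list had 92.4% of the control number of collagen peaks (interval 66.3 to 128.7%). Over all listed peaks it had 82.7% of the control number, which that interval includes.

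**Figure D1:**
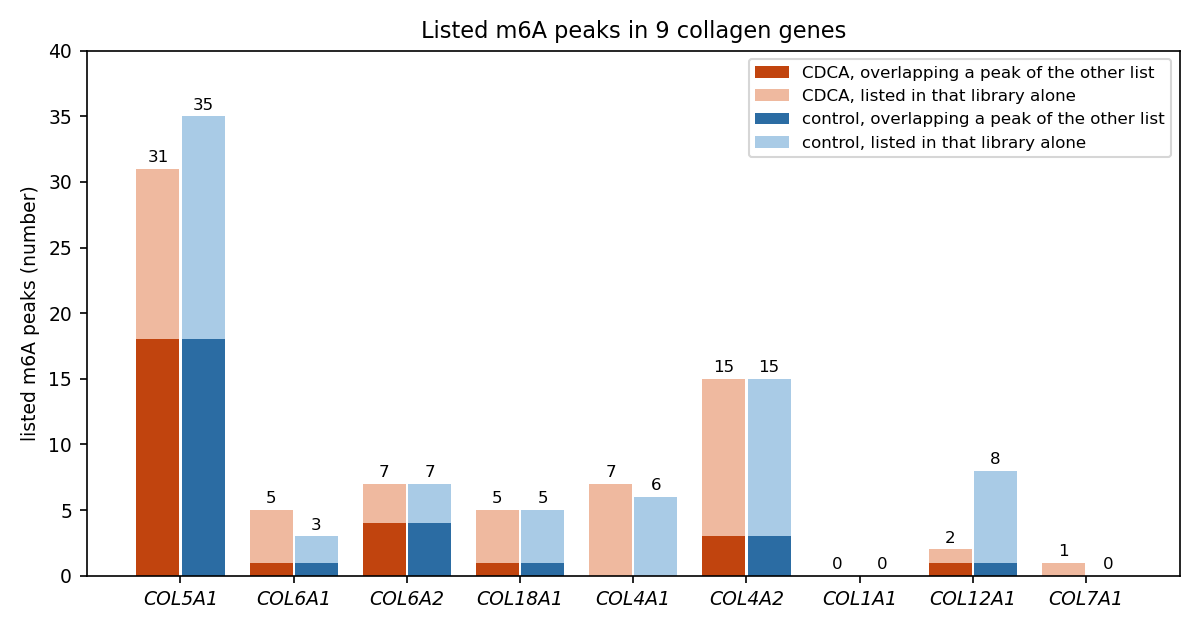
Number of listed m6A peaks (vertical axis) in each of 9 collagen genes (horizontal axis), with the CDCA library left of the control library. The dark part of a bar counts peaks overlapping a peak of the other list, and COL5A1 stands highest with 31 CDCA and 35 control peaks.

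Collagen peaks were found in both libraries more often than listed peaks in general, and without COL5A1 they were not far from them. A peak was called shared when at least 1 bp of it was also covered by a peak from the other library. Of the collagen peaks, 28 of 73 in the CDCA list (38.4%, 27.2 to 50.5) and 28 of 79 in the control list (35.4%, 25.0 to 47.0) were shared, against 22.2% of all CDCA peaks and 18.2% of all control peaks. Without COL5A1, 10 of 42 CDCA peaks (23.8%, 12.1 to 39.5) and 10 of 44 control peaks (22.7%, 11.5 to 37.8) were shared, and both intervals include the share over all peaks of the list. Within COL5A1, 18 of 31 CDCA peaks (58.1%, 39.1 to 75.5) and 18 of 35 control peaks (51.4%, 34.0 to 68.6) were shared.

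Strength moved with sharing, so shares were also read among peaks of like strength. Strong peaks, defined by a −log10 q of 100 or more, numbered 15 of 73 collagen peaks in CDCA cells and 19 of 79 in control cells, while strong peaks made up 7.90% of all CDCA peaks and 7.77% of all control peaks. COL5A1 held 11 of the 15 in CDCA cells and 13 of the 19 in control cells. Of the strong collagen peaks, 14 of 15 were shared in the CDCA list (93.3%, 68.1 to 99.8) and 16 of 19 in the control list (84.2%, 60.4 to 96.6). The same shares over all strong peaks were 91.2% in the CDCA list and 87.6% in the control list, so strong collagen peaks stood near the background. Of the weaker collagen peaks, 14 of 58 were shared in the CDCA list (24.1%, 13.9 to 37.2). In the control list 12 of 60 were shared (interval 10.8 to 32.3%). Over all weaker peaks the share was 16.3% in the CDCA list and 12.3% in the control list, and each interval includes it. Without COL5A1, 6 of 38 weaker collagen peaks were shared in each list (15.8%, 6.02 to 31.3).

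**Figure D2:**
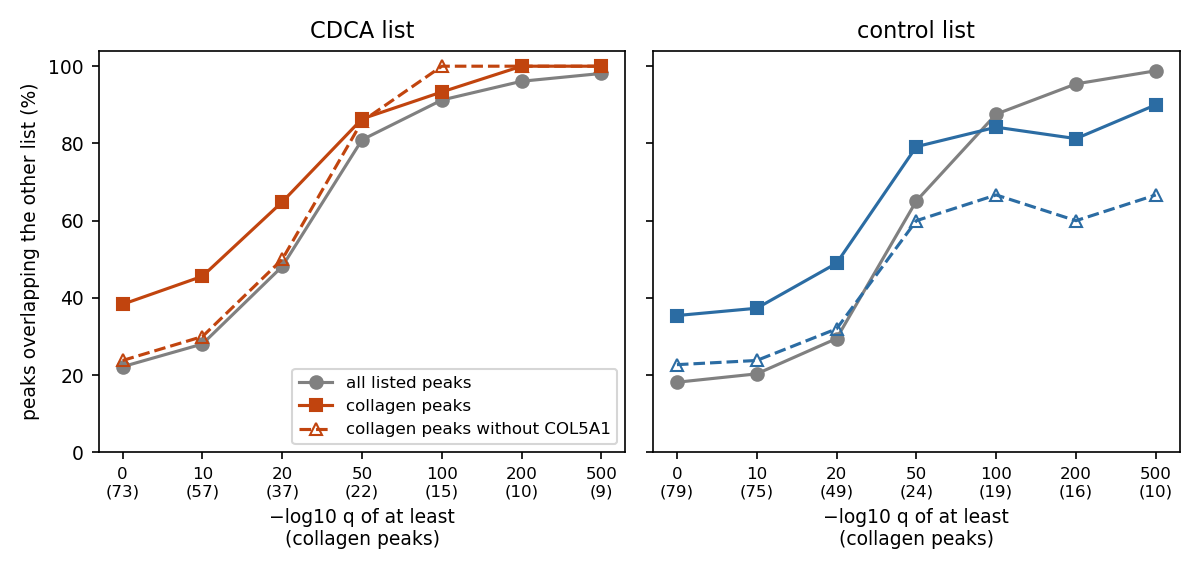
Share of peaks overlapping the other list (vertical axis, %) at rising minimum −log10 q (horizontal axis, number of collagen peaks in brackets), for the CDCA list on the left and the control list on the right. With no minimum, collagen peaks lie above all listed peaks (38.4% against 22.2% in CDCA, 35.4% against 18.2% in control), while collagen peaks without COL5A1 lie near them (23.8% in CDCA and 22.7% in control).

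COL5A1 on chromosome 9 encodes the α1 chain of type V collagen, a minor fibrillar collagen that sets the width of type I fibrils and is mutated in classical Ehlers-Danlos syndrome. Its span, 137533000 to 137737000 on the plus strand, held a dense field of long peaks in its 3′ part. When the span was divided into 3 equal parts, 23 of 31 CDCA peaks and 23 of 35 control peaks had their summit in the 3′-most part, and so did 16 of the 18 shared peaks of each list. The 5′-most part had 4 CDCA peaks and 6 control peaks, of which 0 were shared. Peaks covered 10.2% of the span in CDCA cells and 10.1% in control cells, and the 14298 bases covered in both made up 68.8% of the CDCA and 69.2% of the control total.

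Measured over a stretch of 30 kb, no place in either list was covered by peaks as fully as the 3′ part of COL5A1. From position 137698385 to 137728384, 15 CDCA peaks covered 16147 bases, or 53.8% of the stretch. From 137701974 to 137731973, 12 control peaks covered 14719 bases, or 49.1%. The stretch of 30 kb with the next highest cover had 39.5% in the CDCA list, on chromosome 11, and 39.9% in the control list, on chromosome 14. This measure was chosen after the COL5A1 peaks had been seen, and the stretches were laid from the start of every listed peak.

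The strongest peak of COL5A1 lay at 137717046 to 137717769 in CDCA cells, with a summit height of 1518, a fold enrichment of 23.4 and a −log10 q of 1453. Fold enrichment is the authors' summit height over local background, and height, fold and q describe a peak within its own list only. In control cells the strongest peak ran from 137715915 to 137717859, with a height of 1897, a fold of 24.3 and a −log10 q of 1848. The summits of these peaks were 20 bp apart, and they stood at rank 181 in the CDCA list and rank 145 in the control list by −log10 q. The control peak also met a weaker CDCA peak at 137715902 to 137716846, whose fold was 6.14 and −log10 q 108.

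Single long peaks of one library were broken up in the other. The longest collagen peak of the CDCA list ran 3790 bp, from 137709961 to 137713750 in COL5A1, with a fold of 17.9. It met separate control peaks of 1044 bp and 2377 bp, the second of them, at 137711392 to 137713768, being the longest collagen peak of the control list (fold 21.2). In the other direction, the control peak at 137706159 to 137707901 (fold 31.2) met CDCA peaks of 596 bp and 1904 bp with folds of 33.1 and 24.4. Peak numbers in COL5A1 thus count pieces of longer runs, which is why the bases covered are given beside them. Of all collagen peaks, 6 of 73 in CDCA cells and 10 of 79 in control cells were longer than 1000 bp, against 1.84% of all CDCA peaks and 1.79% of all control peaks, and 5 of the 6 and 7 of the 10 lay in COL5A1.

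Several sites of the COL5A1 field carried nearly equal folds in the lists. At 137702082 to 137704000 the fold was 32.1 in CDCA cells, and its control partner at 137701974 to 137704024 had 33.2. At 137722578 to 137723082 the fold was 29.2 in CDCA cells and 27.8 in control cells, with summits 8 bp apart. At other sites the values stood further apart. The peak at 137721005 to 137722445 had a fold of 6.40 in CDCA cells and its control partner one of 11.4, and the peak at 137727657 to 137728360 had 7.39 in CDCA cells and 12.7 in control cells. These sites were picked after their values had been seen, and without replicates the distance between the lists at a site has no error to be read against.

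**Figure D3:**
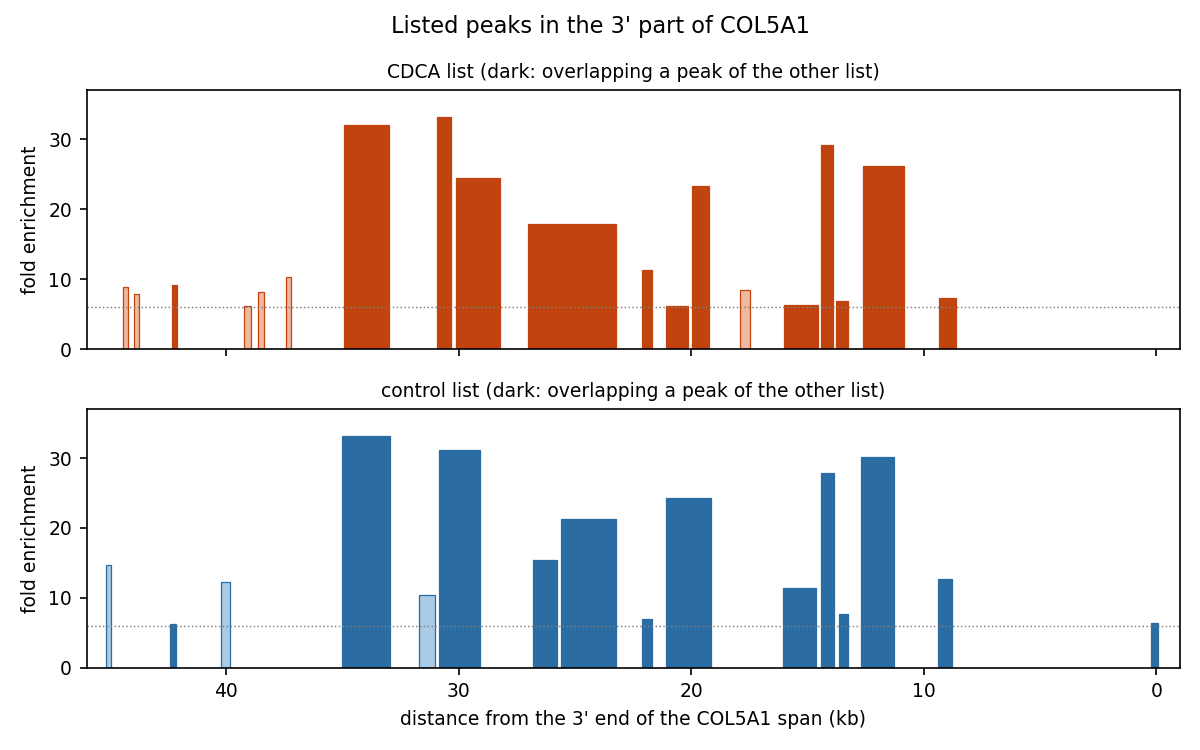
Fold enrichment (vertical axis) of each listed peak in the 3′ part of COL5A1 against its distance from the 3′ end of the span (horizontal axis, kb), with bar width showing peak length, the CDCA list above the control list and a dotted line at fold 6. Most long peaks recur in both lists, such as the site with fold 32.1 in CDCA and 33.2 in control.

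COL5A1 also held one strong peak of each list that had no partner. In CDCA cells it lay at 137719096 to 137719534 (fold 8.51, −log10 q 106), and the closest control peak was 1237 bp off. In control cells it lay at 137705287 to 137705998 (fold 10.4, −log10 q 286), and the closest CDCA peak was 71 bp off. At the very end of the span, a control peak with its summit 121 bp inside (fold 6.35, −log10 q 42.9) overlapped a CDCA peak whose summit fell 19 bp outside (fold 6.08, −log10 q 32.1) and so was not counted for COL5A1.

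COL1A1 encodes the α1 chain of type I collagen, the main fibrillar collagen of connective tissue made chiefly by fibroblasts and bone cells. Neither list had a peak in its span on chromosome 17, 48261000 to 48279000. The nearest listed peak on the lower side ended 33.3 kb before the span in CDCA cells and 33.4 kb before it in control cells, and on the upper side the gap was 113.9 kb in CDCA cells and 10.4 kb in control cells. Each list skips 2 peak numbers between these neighbours. Every listed peak carries a running number from the peak caller, and the reason for skipped numbers is not stated in the sources used here. A skipped number gives no position, so whether an unlisted peak lay in COL1A1 cannot be told from the lists.

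COL12A1 encodes the α1 chain of type XII collagen, which binds along the surface of type I fibrils. It had 1 strong and shared site on chromosome 6, in the 5′ part of its span. In CDCA cells the peak ran from 75892882 to 75893342, with a height of 1309, a fold of 25.2 and a −log10 q of 1296. In control cells it ran from 75892872 to 75893397, with a height of 1431, a fold of 32.5 and a −log10 q of 1572. Its summits were 2 bp apart, 22.9 kb from the 5′ end and 99.1 kb from the 3′ end of a span of 122 kb. It stood at rank 219 of the CDCA list and rank 186 of the control list.

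The remaining COL12A1 peaks were weak and unshared. The CDCA list had 1 more, with a −log10 q of 13.6, and the control list had 7 more. In the control list the median −log10 q over its 8 peaks was 18.2. The excess of control peaks in this gene thus lay among weak peaks: at a −log10 q of at least 50 there was 1 peak in CDCA cells and 1 in control cells. All 7 weak control peaks lay where the CDCA list skips a peak number, which also held for 73.2% of all unshared control peaks with listed neighbours. Most of the 7 lay in the same gap of the CDCA list, between 75847165 and 75892882, where 3 numbers are skipped. They thus do not each have a skipped number of their own.

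COL6A1 and COL6A2 encode the α1 and α2 chains of type VI collagen, the microfibril collagen around cells whose loss causes Bethlem and Ullrich muscle disease. The genes are neighbours on chromosome 21, and both had their strongest peaks close to the 3′ end. In COL6A2 the leading peak had the same summit, 47552339, in both libraries, 0.661 kb from the 3′ end of the span. In CDCA cells it ran from 47551908 to 47552604 with a height of 1888, a fold of 21.0 and a −log10 q of 1722. In control cells it ran from 47551443 to 47552610 with a height of 2706, a fold of 23.3 and a −log10 q of 2583. It was the most significant collagen peak of either list, at rank 135 in CDCA cells and rank 79 in control cells.

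Of the 7 peaks of COL6A2 in each list, 4 were shared. A second strong shared site lay at 47549117 to 47550093 in CDCA cells (fold 11.3, −log10 q 122), and its control partner at 47549168 to 47550737 had a fold of 9.31 and a −log10 q of 185. Shared sites were also present near the 5′ end. At 47525682 to 47525993 the fold was 20.9 in CDCA cells and 16.4 in control cells, and at 47523992 to 47524201 it was 6.43 in CDCA cells and 11.2 in control cells. Between the leading sites, control cells had a strong peak at 47550921 to 47551222 (fold 17.6, −log10 q 236) with no CDCA partner, the closest CDCA peak being 686 bp off.

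COL6A1 shared 1 site, at the very end of its span. In CDCA cells it lay at 47424567 to 47424902 (fold 6.996, −log10 q 76.0) and in control cells at 47424631 to 47424959 (fold 6.60, −log10 q 90.9). A stronger peak, about 1 kb upstream, was listed for control cells alone. It ran from 47423471 to 47423942, with a height of 1184, a fold of 8.71 and a −log10 q of 659, and stood on the highest local background of any collagen peak, 135. The closest listed peak of CDCA cells was 625 bp off. The other CDCA peaks of COL6A1, 4 in number, were all of the minimum length of 200 bp with a −log10 q between 7.72 and 13.98.

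COL4A1 and COL4A2 encode the α1 and α2 chains of type IV collagen, which assemble into the network of basement membranes, and lie head to head on chromosome 13. In both libraries the pair had many weak peaks and no strong one. COL4A1 had 7 CDCA peaks with −log10 q between 8.35 and 21.3 and 6 control peaks with −log10 q between 7.75 and 63.4, and none of them was shared. The intervals for a share of 0 reached 41.0% in CDCA cells and 45.9% in control cells, and so include the 22.2% of all CDCA peaks and 18.2% of all control peaks. Its leading CDCA peak lay at 110944399 to 110944613 (fold 13.03, −log10 q 21.3), and its leading control peak at 110847384 to 110847768 (fold 25.9, −log10 q 63.4).

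COL4A2 shared 3 of its 15 peaks in each list, with an interval for that share of 4.33 to 48.1%, which includes the share over all listed peaks. The shared sites were weak and lay far from the 3′ end. At 111044559 to 111044807 the fold was 10.4 in CDCA cells and 7.94 in control cells, and at 111111251 to 111111674 it was 12.9 in CDCA cells and 10.8 in control cells. At 111040944 to 111041146 it was 8.92 in CDCA cells and 6.86 in control cells. The leading CDCA peak of COL4A2 was not among them. It lay 0.925 kb from the 3′ end, at 111164934 to 111165255 (fold 6.47, −log10 q 65.9), with the nearest control peak 8457 bp away. The leading control peak lay at 111131016 to 111131292 (fold 19.5, −log10 q 42.2), and it had no CDCA partner.

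COL18A1 encodes the α1 chain of type XVIII collagen, a basement membrane collagen whose C-terminal fragment is endostatin, an inhibitor of vessel growth. It had 1 strong and shared site, at the 3′ end of its span on chromosome 21, among peaks that were otherwise unshared. In CDCA cells the peak ran 1027 bp, from 46932470 to 46933496, with a fold of 17.9 and a −log10 q of 126. In control cells it ran 1102 bp, from 46932459 to 46933560, with a fold of 18.7 and a −log10 q of 215. The CDCA peak lay wholly within the control peak, while the summits were 556 bp apart.

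COL7A1 encodes type VII collagen, the anchoring fibril protein lost in dystrophic epidermolysis bullosa. Its only peak was in CDCA cells, at 48601831 to 48602030 on chromosome 3, 0.931 kb from the 3′ end. With a fold of 6.43, a −log10 q of 6.95 and a local background of 0.746, it was among the weakest collagen peaks. The control list skips 3 peak numbers between the listed peaks on either side of the gene.

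**Figure D4:**
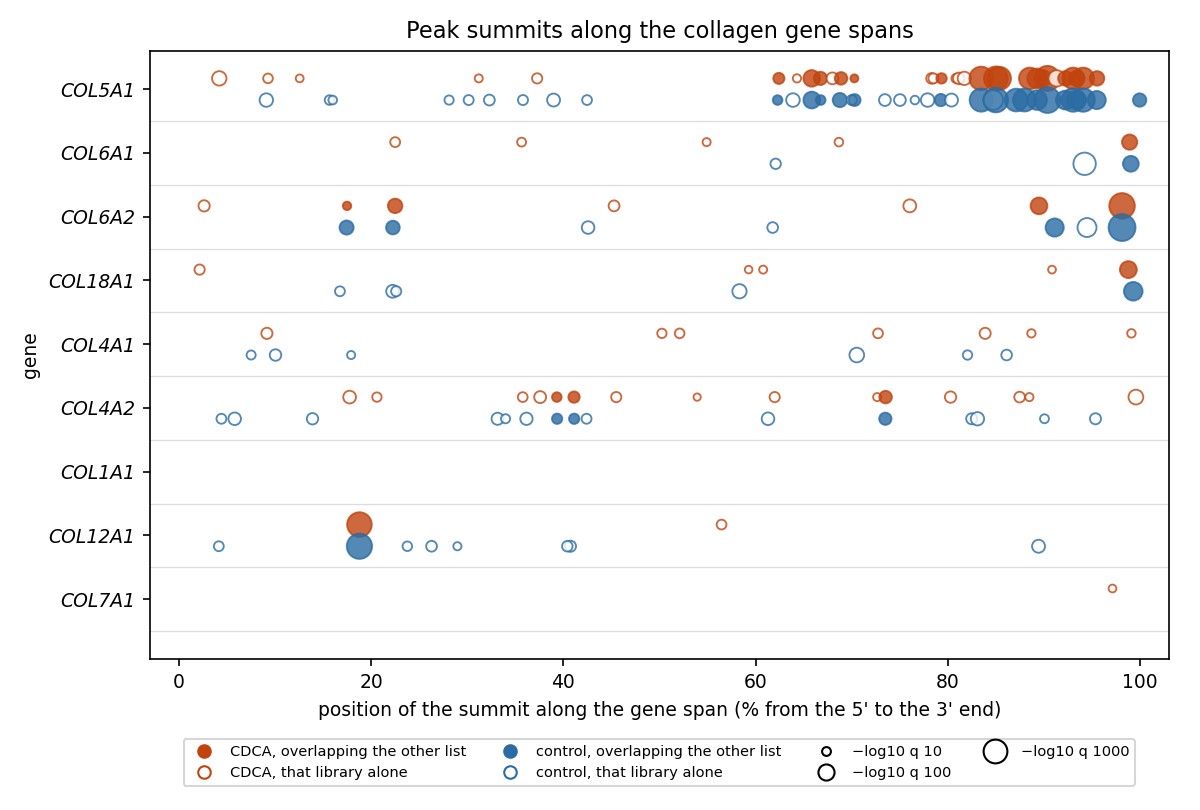
Summit position along each gene span (horizontal axis, % from the 5′ to the 3′ end) for each collagen gene (vertical axis), with CDCA peaks above control peaks, symbol area growing with −log10 q and filled symbols overlapping the other list. The large filled symbols of COL6A2 and COL18A1 sit at the 3′ end, 0.661 kb from it in COL6A2, and those of COL12A1 lie 99.1 kb away from it.

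Pooled over the 9 genes, peaks were denser at the 3′ ends of the spans, though not every gene had a peak there. The last 2 kb of each span, 18 kb in all, had 6 CDCA peaks and 6 control peaks, or 0.333 per kb in either list. The other 890 kb had 67 CDCA peaks and 73 control peaks, 0.0753 and 0.0820 per kb. In CDCA cells the 6 peaks fell in 6 genes, COL6A1, COL6A2, COL18A1, COL4A1, COL4A2 and COL7A1. In control cells they fell in 4 genes, COL5A1 and COL18A1 with 1 each and COL6A1 and COL6A2 with 2 each. The local background moved with this: its median was 14.5 in the CDCA list and 22.2 in the control list at the 3′ ends, against 1.80 in the CDCA list and 2.40 in the control list elsewhere, and its part in the density was not tested. The spans hold introns of unequal length, and exons were not used here.

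Partner peaks of collagen genes had median summit distances like those of listed peaks in general, with a wider spread. Over 29 pairs, counting each overlap once, the median distance between summits was 40 bp (quartiles 20 and 248), against 51 bp over all 11870 pairs (19 and 130). Of the collagen pairs, 15 of 29 had summits within 50 bp, or 51.7%, near the 49.9% over all pairs. Where both partners were strong, the median was 29 bp over 15 collagen pairs (quartiles 14 and 666.5) and 24 bp over 3311 pairs in all (9 and 54), and 60.0% of these collagen pairs and 73.1% of all such pairs had summits within 50 bp. The long peaks of COL5A1 gave the widest distances, up to 2875 bp.

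**Figure D5:**
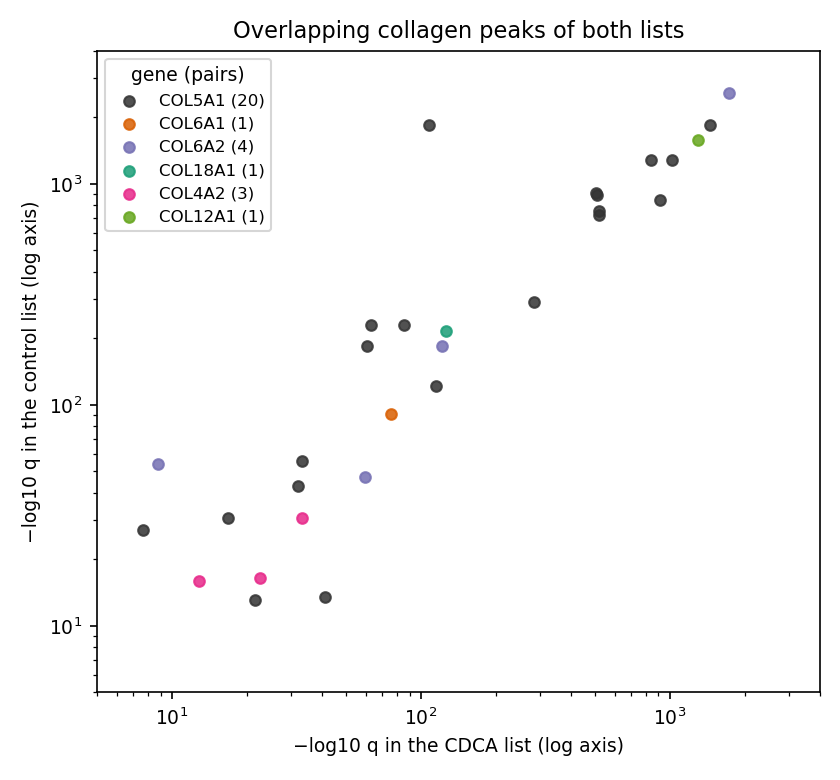
The −log10 q of overlapping collagen peaks in the CDCA list (horizontal, log axis) and the control list (vertical, log axis), 1 point per pair (the pair at the 3′ edge of the COL5A1 span included) and coloured by gene, with the number of pairs in the legend. Pairs strong in one list were mostly strong in the other, up to 1722 in CDCA and 2583 in control for COL6A2.

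Peaks listed in one library alone were mostly weak, and most had a gap in the peak numbers of the other list beside them. There were 45 such collagen peaks in CDCA cells and 51 in control cells. Of these, 37 of 45 in CDCA cells (82.2%, 67.9 to 92.0) and 42 of 51 in control cells (82.4%, 69.1 to 91.6) lay between peaks of the other list with non-consecutive numbers. Over all unshared peaks with listed neighbours this held for 63.2% in the CDCA list and 73.2% in the control list. Some neighbouring collagen peaks, in COL5A1 and COL12A1 among others, lay in the same gap of the other list. The intervals count each peak separately and so are narrower than the gaps warrant. All 4 strong unshared collagen peaks, 1 from CDCA cells and 3 from control cells, had such a skipped number beside them, against 97.5% of strong unshared CDCA peaks and 92.1% of strong unshared control peaks. No collagen peak had a fold below 6.01 in the CDCA list or 6.10 in the control list, and a fold of 6 was the floor of the lists as deposited.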

How the data were processed

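Per the labels' protocols, RNA of GES-1 cells freed of ribosomal RNA was pulled down with an m6A antibody, and libraries from an NEBNext Ultra kit were read from both ends. MACS2 2.1.0, TopHat2 2.0.13 and the build hg19 stand in the submitters' processing notes without roles. The caller's input and thresholds are not stated in the sources used here. Per the file headers, the deposited tables give each peak's position and summit, a pileup signal (height), −log10 of the p-value and q-value, and fold enrichment as a ratio. Peaks were listed per library, not on pooled samples.

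Depth in reads is unknown. Heights were whole multiples of 0.640 in the CDCA list and 0.862 in the control list (100% of peaks, tolerance 0.05 steps), so if 1 step is 1 fragment the weakest listed summits rested on 15 fragments in CDCA and 12 in control. Local background was computed as height plus 1 over fold, minus 1.

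Gene spans were given to 1 kb in hg19. The 9 genes and all lists were chosen with earlier results of these data known. All 9 were described. Peaks were named by a rule: the most significant per gene and list with its partners, strong ones without partner, and the longest of each list; others named were chosen after their values were seen. Alternatives covered the overlap rule, peak thresholds, equal list lengths and gene assignment. An hg19 genome and annotation were not used here, so exons, motifs, peak sequences and other collagen or collagen-processing genes were not analysed here. Overlap code was tested on 5000 simulated peaks and gave the right answer for 100%. Computation used scipy 1.17.1, pandas 2.3.3 and numpy 2.4.6 under Python 3.11.15, and figures matplotlib 3.10.9.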

Additional observations from a re-analysis of the deposited data

How the results depend on the processing

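Assignment by any overlap, spans widened by 1 kb, equal list lengths and the stricter overlap rules kept the 4 main values (peak numbers 73 in CDCA and 79 in control, shares 38.4% in CDCA and 35.4% in control) within 1.5 times or within the interval given for the share. The shares were lowest when summits had to lie within 100 bp, at 27.4% in CDCA and 25.3% in control. These values lay close to the lower interval ends of 27.2 and 25.0, and this rule was not run over all listed peaks. Thresholds set the numbers. They were applied to both lists, so a partner had to pass them too. This joint rule was not run over all listed peaks, so shares under it have no background here. The shares over all peaks given below belong to the rule of any listed partner. At a −log10 q of at least 20 there were 37 CDCA and 49 control peaks, with 56.8% of the CDCA and 42.9% of the control peaks shared. With any listed partner the shares at 20 were 64.9% and 49.0%, against 48.2% of all CDCA and 29.5% of all control peaks. Without COL5A1, 8 of 16 CDCA and 8 of 25 control peaks were shared at 20 by that rule, near the shares over all peaks. At 50 there were 22 CDCA and 24 control peaks, with 81.8% and 70.8% of them shared (86.4% and 79.2% with any listed partner, against 80.9% of all CDCA and 65.1% of all control peaks). A fold of at least 10 left 29 CDCA and 39 control peaks. Settings added after seeing the data were a −log10 q of at least 100 and leaving out COL5A1. The minimum of 100 in both lists left 15 CDCA and 19 control peaks, with 93.3% and 68.4% of them shared. With any listed partner the shares at 100 were 93.3% and 84.2%, against 91.2% of all CDCA and 87.6% of all control peaks. Leaving out COL5A1 left 42 CDCA and 44 control peaks, with 23.8% and 22.7% of them shared. Of the differences in peak number per gene, that of COL5A1 turned from −4 to 1 at 50, that of COL4A1 from 1 to −1 at 50, and that of COL6A1 from 2 to −1 at 20, 50 and 100. Equal numbers in the full lists were not kept at 20, where COL4A2 had 6 CDCA and 9 control peaks, COL6A2 5 and 6, and COL18A1 1 and 3. At 50 COL4A2 had 1 CDCA and 0 control peaks. At a fold of at least 10, COL4A2 had 5 CDCA and 7 control peaks, COL18A1 1 and 3, and COL6A2 4 in each list. Fewer peaks enter at each threshold by construction. No paired analysis was possible because each condition had 1 library. Leaving out a replicate was not possible for the same reason.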
